A study of Mus musculus with 38 samples.

Results

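Esrrb, Tfcp2l1, Nr5a2, Nr0b1, Prdm14, Tbx3 and Zfp42 are transcription factors of naïve pluripotent cells, and their transcripts were followed here through 38 mouse RNA-seq libraries of 18 groups. These 7 genes were chosen by name, with earlier results of these data known, from the 29267 genes of each table. All 7 were found by their Ensembl identifiers. The study asked how the AP-1 factor c-Jun bears on the passage between primed epiblast stem cells (EpiSC) and the naïve state. ESC (5 libraries) are naïve embryonic stem cells, for 2 of which the labels give the strain CBA/CaJ X C57BL/6J, and EpiSC (4 libraries) are the primed cells that they were set against. kEpiSC (2 libraries) are an EpiSC line carrying a Klf4 transgene, which the study drove from the CAG promoter. kEpiSC were moved to iCD1, a chemically defined reprogramming medium, and sampled after 1, 2 and 3 days with the JNK inhibitor SP600125 (JNKi; 2, 3 and 2 libraries) or without it (2 libraries a day). kiPSC (2 libraries) are the naïve-like cells obtained at the end of that course. In a second system, JunKO and wild-type (WT) ESC were turned into primed EpiSC-like cells (iEpiSC), and a Klf4-bearing form of these (kiEpiSC) was put through 3 days of iCD1. It gave 2 JunKO and 2 WT libraries with JNKi, and 2 JunKO and 2 WT libraries without it. The JunKO and WT iEpiSC and kiEpiSC lines gave 1 library each and are called primed cells below. The labels give no day for the kiEpiSC libraries in iCD1, and day 3 is taken from the paper, which scored this course then. JunKO cells carry a c-Jun deletion made with paired guides and Cas9, all kEpiSC-derived and kiEpiSC-derived groups share the Klf4 transgene, and the labels do not say whether libraries of a group came from separate cultures or clones, so every p-value below measures the spread between libraries only.

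Naïve pluripotency, the state of the preimplantation epiblast, is held in culture by a network of transcription factors that sustain each other beneath LIF/STAT3 signalling and inhibition of MEK and GSK3. Esrrb, an orphan nuclear receptor, and Tfcp2l1, a grainyhead-related factor, relay GSK3 inhibition and STAT3 signalling to this network, Nr5a2 is a nuclear receptor able to drive EpiSC to the naïve state, and Tbx3 is a T-box factor acting downstream of LIF. Nr0b1 (Dax1) is a nuclear receptor without the usual DNA-binding domain, Prdm14 represses FGF receptor and DNA methyltransferase genes, and Zfp42 (Rex1) is a zinc finger protein long used to mark naïve cells. On mm10, Esrrb (ENSMUSG00000021255) lies on chromosome 12 at 86361117-86521628, Tfcp2l1 (ENSMUSG00000026380) on chromosome 1 at 118627945-118685168, Nr5a2 (ENSMUSG00000026398) on chromosome 1 at 136842571-136960448 and Nr0b1 (ENSMUSG00000025056) on chromosome X at 86191764-86195947. Prdm14 (ENSMUSG00000042414) lies on chromosome 1 at 13113457-13127163, Tbx3 (ENSMUSG00000018604) on chromosome 5 at 119670669-119684724 and Zfp42 (ENSMUSG00000051176) on chromosome 8 at 43295063-43306980.

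Promoter windows from RefSeq (GRCm38.p6, the assembly of mm10) matched 5 of the 7 genes in 7 windows, with none for Prdm14 and Tbx3. The 250 bases upstream of the start site are shown for Esrrb, Tfcp2l1 and Zfp42, because these 3 genes gave the most counts in the comparisons below and because Klf4 is the transgene of the course. They are written 5′ to 3′ on the gene's strand, and capitals mark every match of a KLF motif (GGGNGNGG) or of the octamer bound by Oct4 (ATGCAAAT), on either strand, with overlapping matches counted separately.
Esrrb, chr12:86360867-86361116, plus strand: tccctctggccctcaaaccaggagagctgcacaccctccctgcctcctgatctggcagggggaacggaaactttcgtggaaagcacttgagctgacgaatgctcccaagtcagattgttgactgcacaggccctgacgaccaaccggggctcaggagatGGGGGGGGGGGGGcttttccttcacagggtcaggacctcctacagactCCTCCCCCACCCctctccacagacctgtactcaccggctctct
Tfcp2l1, chr1:118627695-118627944, plus strand: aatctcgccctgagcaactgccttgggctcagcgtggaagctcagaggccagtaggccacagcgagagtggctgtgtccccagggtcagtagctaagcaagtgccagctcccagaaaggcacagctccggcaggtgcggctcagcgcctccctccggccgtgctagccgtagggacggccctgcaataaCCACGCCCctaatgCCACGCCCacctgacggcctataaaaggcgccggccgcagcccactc
Zfp42, chr8:43307010-43307259, minus strand: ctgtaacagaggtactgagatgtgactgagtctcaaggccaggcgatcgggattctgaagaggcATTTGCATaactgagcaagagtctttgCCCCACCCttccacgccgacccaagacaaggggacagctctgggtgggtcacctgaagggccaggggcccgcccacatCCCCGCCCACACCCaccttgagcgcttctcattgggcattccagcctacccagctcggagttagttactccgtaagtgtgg
Over the full windows, which run 50 bases past the start site, the KLF motif matched 8 times in the Esrrb window shown, 2 times in that of Tfcp2l1 and 4 times in that of Zfp42. The KLF motif is a frequent one, with a match in 49.5% of the 32851 windows of the RefSeq table. The octamer matched once among the 7 windows, in Zfp42 at position -186, against 1.74% of all windows. The AP-1 motif TGANTCA (7.81% of all windows), the nuclear receptor motif AAGGTCA (4.72%) and its extended form TCAAGGTCA (0.423%) had no match in any of the 7 windows, which says only that these letters are not in these stretches.

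Total counts ran between 2.17M and 15.9M a library, with EpiSC the shallowest group and kEpiSC the deepest. Levels of 1 gene are compared between libraries in CPM, the counts scaled to a common library total with TMM factors over all 38 libraries, and levels of different genes in TPM, which is per length. Jun was at 8.46 to 25.5 CPM in the 6 JunKO libraries and at 66.8 to 416.2 CPM in the 6 WT libraries, so reads of the deleted gene were low but not absent. Klf4 was at 71 to 101 CPM in kEpiSC and at 0.940 to 2.41 CPM in EpiSC. It was at 40.7 CPM in JunKO iEpiSC and 45.4 in JunKO kiEpiSC, and at 49.8 CPM in WT iEpiSC and 70.7 in WT kiEpiSC, so iEpiSC were also far above EpiSC, and the labels do not say whether iEpiSC carry the transgene. In ESC replicates 1 to 4 the median gap between a gene's length and the effective length that RSEM used was 73.5 bases, against 133 to 192 bases in every other library, ESC replicate 5 included. With ESC replicate 5 as the only ESC library, the number of the 7 factors called was 7 against EpiSC and 0 for kiPSC against ESC, the same as with all 5. The 4 markers of pluripotent cells of both states (Pou5f1, Nanog, Sox2, Sall4) were present in every group, with summed levels of 2251 to 2920 CPM in ESC and 1510 to 2146 CPM in EpiSC. The 7 fibroblast feeder markers, all seen, summed to 1964 to 4462 CPM in ESC and 183.8 to 2040 CPM in EpiSC. They summed to 2923 to 3976 CPM in kiPSC and 1144 to 1226 CPM in kEpiSC. The paper describes naïve ESC on coated surfaces, with no feeders named, and EpiSC both on feeders and without them. These sums are therefore not read as a measure of feeder cells, and their part in the contrasts of these lines was not tested.

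Naïve cells held all 7 factors far above primed cells. Every factor was higher in ESC than in EpiSC by the edgeR quasi-likelihood test, with Benjamini-Hochberg adjustment over all genes and a threshold of 0.05 throughout, while 27.1% of the 13923 genes tested were called higher. In TPM, Zfp42 was the most abundant, at 338.9 ± 59.4 in ESC and 1.73 ± 3.46 in EpiSC (SD, n = 5 and 4). Esrrb averaged 295.1 ± 35.4 TPM in ESC and 1.57 ± 0.379 TPM in EpiSC, and Tfcp2l1 210.6 ± 53.7 TPM in ESC and 1.19 ± 0.343 TPM in EpiSC. These 3 genes stood above the other 4 in each of the 5 ESC libraries.

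The remaining 4 factors were less abundant in ESC and close to nothing in EpiSC. Tbx3 averaged 94.4 ± 17.7 TPM in ESC and 0.0750 ± 0.0870 TPM in EpiSC, where its 4 libraries held 2 counts in all. Nr5a2 averaged 54.3 ± 10.5 TPM in ESC and 1.21 ± 0.848 TPM in EpiSC. Its transcripts differ in length and the mean length used for TPM moved between libraries, so the counts, 2409 over ESC and 10 over EpiSC, are the firmer measure. Nr0b1 at 92.1 ± 13.8 TPM and Prdm14 at 45.2 ± 10.1 TPM in ESC had no count in any EpiSC library. Against a floor of 3 counts over the EpiSC group, Nr0b1 was at least 296-fold and Prdm14 at least 213-fold higher in ESC, bounds that cover counting error only. For Tbx3 the ratio of pooled CPM was 966, with a 95% counting interval of 267 to 7976. Esrrb differed by 8.28 ± 0.25 on the log2 scale (SE; edgeR adjusted p = 5.62e-10), Tfcp2l1 by 7.38 ± 0.27 (1.31e-09), Zfp42 by 7.74 ± 0.64 (9.73e-07) and Nr5a2 by 6.66 ± 0.41 (9.14e-08). The Zfp42 value rests on the 15 counts of EpiSC replicate 1: without that library EpiSC had no count of it and the fitted value was 14.04, which depends on the prior count and is no bound.

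**Figure D1:**
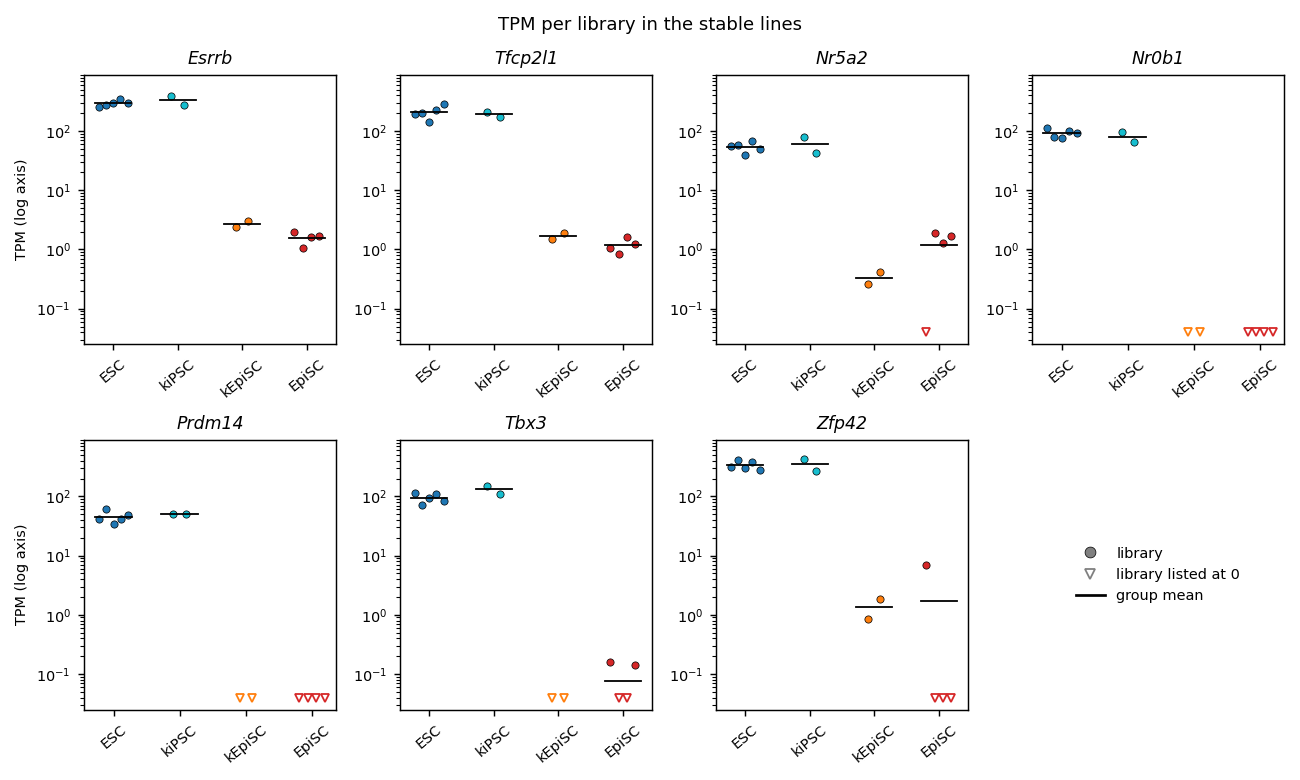
TPM of each factor (log axis) in every ESC, kiPSC, kEpiSC and EpiSC library, with black lines at group means and open triangles for libraries listed at 0. ESC and kiPSC libraries lie together, between 34.5 and 420.5 TPM over the 7 genes, and all kEpiSC and EpiSC libraries lie at or under 6.92 TPM.

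Other genes of the naïve network had the same contrast in these lines. Of 20 such genes fixed as a list, 17 were called higher and 1 lower in ESC, with a median log2 fold change of 4.87 against 0.025 over all genes tested. The largest fitted values were those of Dppa3, a maternal factor that shields methylation (12.38), and Tcl1, a coactivator of Akt kinases (11.90). Neither gene had a count in EpiSC, so both values depend on the prior count and are no measured size. Jam2, an adhesion molecule, came next (8.37). Utf1, a chromatin factor of pluripotent cells, was the one called lower (-2.33). Of 13 paralogues of the 7 factors, such as Esrra, Tfcp2 and Tbx2, 9 could be tested, 2 were called higher and their median was 0.32. Among 12 signalling inputs and cofactors, 7 were called higher and 1 lower, including Lifr, the LIF receptor (2.59), Ncoa3, a coactivator of Esrrb (2.06), and Stat3 (1.99). Of 6 genes that Prdm14 is known to repress, Dnmt3b (-2.76), Dnmt3a (-1.04) and Fgfr1 (-0.97) were called lower in ESC, and Dnmt3l (6.78) and Uhrf1 (0.81) were called higher.

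The Klf4 line, before any change of medium, held 1 of the 7 factors above EpiSC. Esrrb was at 4.78 and 6.71 CPM in kEpiSC, against 1.46, 1.47, 2.06 and 2.82 CPM in EpiSC. These groups did not overlap, and Esrrb was 1.55 ± 0.32 higher on the log2 scale (edgeR adjusted p = 0.0308), while 0.941% of all genes were called higher. Tfcp2l1 was at 8.19 and 10.7 CPM in kEpiSC and between 4.38 and 8.25 CPM in EpiSC, which overlap (edgeR adjusted p = 0.405). Nr0b1 and Prdm14 had no count in any of these 6 libraries, Tbx3 had none in kEpiSC and 2 in EpiSC, and Zfp42 was at 0.852 and 1.86 CPM in kEpiSC and was seen in 1 of the 4 EpiSC libraries. The libraries differ in more than the transgene: Eif2s3y, a Y-linked gene, was at 61.2 and 68.0 CPM in kEpiSC, against 39.96 CPM in EpiSC replicate 1 and 0.688 to 0.734 CPM in EpiSC replicates 2 to 4. Xist, the RNA of the inactive X, was at 1.11 and 1.03 CPM in kEpiSC, against 8.87 CPM in EpiSC replicate 1 and 1697 to 2103 CPM in EpiSC replicates 2 to 4, so those 3 libraries differ from kEpiSC in both genes. The part of this difference in the Esrrb value was not tested. The Esrrb call rested on most of the libraries, since it was lost when any kEpiSC library or EpiSC replicate 2, 3 or 4 was left out, and with limma on log2(TPM + 1), only these 2 groups or all 38 libraries in the fit.

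kiPSC, at the far end of the course, held all 7 factors at levels whose ranges overlapped those of ESC. None was called in either direction, against 0.0934% of genes called higher, and their log2 differences lay between -0.20 ± 0.21 for Nr0b1 and 0.24 ± 0.18 for Tbx3. Over all genes 765 had an unadjusted p under 0.05 in edgeR, and DESeq2 and limma likewise called 0 of the 7. Esrrb was at 776 and 513 CPM in kiPSC, against 502 to 739 CPM in ESC, with a median of 581. Prdm14 was at 69.2 and 66.9 CPM in kiPSC, against 47.7 to 81.2 CPM in ESC, with a median of 56.6. kiPSC replicate 1 was the higher of its 2 libraries for all 7 factors, as for Nr5a2, at 127.9 and 65.9 CPM.

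Between kEpiSC and kiPSC the whole set was switched on. All 7 factors were called higher in kiPSC, where 28.2% of the 14892 genes tested were called higher. Zfp42 was at 392 and 246 CPM in kiPSC, against 0.852 and 1.86 CPM in kEpiSC, a log2 fold change of 7.87 ± 0.46 (edgeR adjusted p = 1.41e-09). Tfcp2l1 was at 1069 and 893 CPM in kiPSC, against 8.19 and 10.7 CPM in kEpiSC (6.70 ± 0.38, edgeR adjusted p = 1.10e-09). Esrrb rose by 6.81 ± 0.51 and Nr5a2 by 7.24 ± 0.58 on the same scale (edgeR adjusted p = 2.40e-08 and 5.15e-08). Nr0b1, Prdm14 and Tbx3 had no count in the 2 kEpiSC libraries, the deepest of the series, so that against 3 counts over the group they were at least 787-fold, 690.4-fold and 2294-fold higher in kiPSC. Of the 20 other naïve genes 17 were called higher and 1 lower, with a median log2 fold change of 3.78. Stat3 (2.31), Lifr (1.95) and Il6st (1.92), which together carry the LIF signal, were the 3 largest among the 8 of 12 inputs and cofactors called higher.

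The 3 days in iCD1 covered little of that distance, and the factors did not all pass the test against kEpiSC on the same day. Differences between the factors in their timing were not tested. Levels are given next as a percentage of the mean CPM of the kiPSC libraries. The mean of kEpiSC was at 0.962% for Tfcp2l1, 0.891% for Esrrb, 0.646% for Nr5a2 and 0.425% for Zfp42. It was at 0 for Nr0b1, Prdm14 and Tbx3, so the order of the percentages also holds the starting level. On day 1, Nr5a2 was furthest, at 3.73% and 7.29%, and Prdm14 had no count. On day 2, Nr5a2 was at 5.20% and 3.13%, Esrrb at 2.55% and 2.00%, and Nr0b1, Tbx3, Tfcp2l1 and Zfp42 between 0.800% and 1.75%. Prdm14 had the lowest percentage in both day 2 libraries, at 0.436% and 0.703%, from 0 in kEpiSC. Tfcp2l1 was at 1.375% and 1.349% on day 2, from 0.835% and 1.09% in the kEpiSC libraries. On day 3 the median factor was at 1.40% in replicate 1 and 0.608% in replicate 2, with no factor over 2.22%. In bulk RNA, few cells at a high level and many cells at a low level cannot be told apart.

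Nr5a2 was the first factor to pass the test in iCD1 alone. It was at 3.62 and 7.07 CPM on day 1, against 0.655 and 0.598 CPM in kEpiSC, 3.06 ± 0.62 higher on the log2 scale (edgeR adjusted p = 9.06e-04). It was the 1 member called on day 1, where 23.2% of genes were called higher, so that 1 of 7 is not above the share of all genes. Esrrb, at 11.8 and 11.3 CPM on day 1 and 4.78 and 6.71 CPM in kEpiSC, did not overlap between the groups but did not pass (1.00 ± 0.52, edgeR adjusted p = 0.124). Zfp42, at 1.995 and 2.827 CPM on day 1 and 0.852 and 1.86 CPM in kEpiSC, did not overlap either and did not pass (0.82 ± 0.60, edgeR adjusted p = 0.276). Nr0b1 had 3 counts and Tbx3 6 counts over the 2 day 1 libraries, each seen in both, from no count in kEpiSC. On day 2, 6 of 7 were called, every one but Tfcp2l1, against 24.1% of genes. Esrrb was at 16.5 and 12.9 CPM on day 2 (1.35 ± 0.52 over kEpiSC, edgeR adjusted p = 0.0405), Nr5a2 at 5.04 and 3.03 CPM (2.66 ± 0.66, 0.00357) and Zfp42 at 2.67 and 5.58 CPM (1.58 ± 0.57, 0.0306). The 3 factors silent in kEpiSC were each seen in both day 2 libraries. Tbx3, with 28 counts there, was at least 21.7-fold over the kEpiSC floor, Nr0b1, with 15, at least 11.7-fold, and Prdm14, with 5, at least 3.88-fold.

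By day 3 fewer factors stood above kEpiSC. Tbx3 and Prdm14 were called, 2 of 7 against 25.2% of genes, a share near that of all genes. These calls rested on 23 and 4 counts, at least 19.7-fold and 3.43-fold over the kEpiSC floor. Tbx3 was at 3.16 CPM in day 3 replicate 1 and at 0.207 CPM in replicate 2. Esrrb was at 9.04 and 5.38 CPM on day 3, against 4.78 and 6.71 CPM in kEpiSC, and Nr5a2 at 2.15 and 0.621 CPM, against 0.655 and 0.598 CPM, so that both overlapped kEpiSC. Nr0b1, with 6 counts, did not pass (edgeR adjusted p = 0.0684), and Tfcp2l1, at 14.8 and 9.52 CPM, was not called on any day in iCD1 alone. Day 3 replicate 1 was the higher library for 6 of the 7 factors. The difference between day 3 and day 2 was not tested. Calls on these few counts moved with single libraries: without one library 3 to 4 of the 7 were called on day 2 and 0 to 1 on day 3, the 0 being without day 3 replicate 1, while Nr5a2 stayed the 1 call on day 1.

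**Figure D2:**
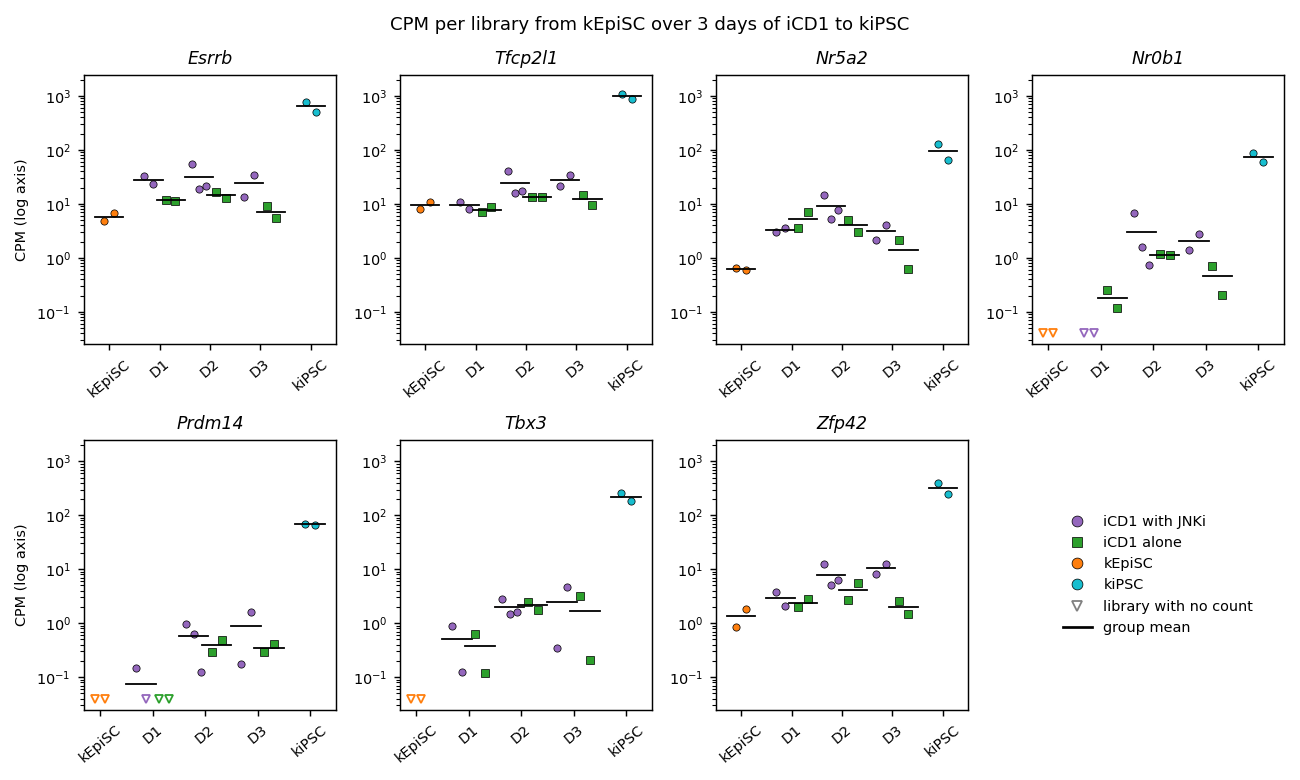
CPM of each factor (log axis) in kEpiSC, over 3 days of iCD1 with JNKi (purple circles) or alone (green squares), and in kiPSC, with black lines at group means and open triangles for libraries with no count. The 7 factors stayed at or under 15.3% of the kiPSC mean in every library of the 3 days.

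All 7 factors were still higher in kiPSC than on day 3 of iCD1, where 29.3% of genes were called higher. The log2 fold changes lay between 6.02 ± 0.58 for Nr5a2 and 7.59 ± 0.61 for Prdm14. Markers of other cells and of the primed state moved within the same 3 days. The summed level of 7 mesoderm markers was 41.5 to 51.9 CPM in kEpiSC, 1755 to 1817 on day 1, 373 to 472 on day 2 and 116 to 136 on day 3, with each marker seen on each day. The summed level of the 4 markers of both pluripotent states was lower on each later day, at 1786 to 1831 CPM in kEpiSC, 854 to 904 on day 1, 308 to 310 on day 2 and 157 to 191 on day 3. The 14 primed epiblast markers summed to 2164 to 2417 CPM in kEpiSC, 2237 to 2332 on day 1, 775 to 944.5 on day 2 and 411 to 431 on day 3, with Fgf5 at 0 from day 2. T is on both this list and the mesoderm list, and its share of the sums was not separated. The 8 trophoblast markers, all seen on each day, summed to 166 to 194.5, 644 to 735, 244 to 284 and 208 to 246 CPM in that order, and the 7 primitive endoderm markers to 16.3 to 23.9, 66.1 to 92.6, 77.2 to 86.7 and 31.6 to 41.2 CPM, with Gata4 at 0 from day 2. Summed markers of fibroblast feeders (7 of 7 seen) were 1144 to 1226 CPM in kEpiSC and 1698 to 1724 CPM on day 3. Their part in the levels of the 7 factors was not tested. Of the 20 other naïve genes, 9 were called higher on day 3, with the largest fitted values for Dppa3 (8.60), Tcl1 (4.48) and Dppa5a (3.02). Dppa3 and Tcl1 had no count in kEpiSC, so their values depend on the prior count and are no measured size. Another 8 were called lower, with Utf1 (-8.47), Pou5f1 (-6.00) and Fgf4 (-5.34) the largest. Of the 10 paralogues tested, 7 were called higher on day 3, among them Tbx2 (5.16), Esrrg (3.36) and Prdm1 (2.26). Stat3 (1.99) and Socs3 (2.17), a STAT3 target, were among the 5 of 12 inputs and cofactors called higher.

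With JNKi in the medium, more of the set passed the test against kEpiSC, the comparisons with and without JNKi sharing the same kEpiSC libraries. On day 1 Esrrb (2.27 ± 0.48, edgeR adjusted p = 0.00133) and Nr5a2 (2.36 ± 0.67, edgeR adjusted p = 0.00953) were called, 2 of 7 against 23.1% of genes. On day 2 all 7 were called, against 26.0% of genes, and on day 3 all 7 again, against 24.5%. Tfcp2l1 was at 40.6, 16.3 and 17.4 CPM on day 2 with JNKi and at 21.4 and 33.9 CPM on day 3 with JNKi, 1.37 ± 0.33 and 1.51 ± 0.37 over kEpiSC (edgeR adjusted p = 0.00228 and 0.00329). Without day 3 JNKi replicate 3, the day 3 count was 3 of 7, and without other single libraries it was 6 or 7. On day 2 JNKi had 3 libraries and iCD1 alone 2, so those counts of calls differ in power. For days 2 and 3, limma called 6 and 4 with JNKi, and 4 and 0 in iCD1 alone. With only the groups compared, edgeR called 6 and 5 with JNKi, and 5 and 0 in iCD1 alone.

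Set directly against iCD1 alone, JNKi gave no call in any of the 7 factors on any day. The share of all genes called higher was 0% on day 1, 0.00672% (1 gene) on day 2 and 0% on day 3. Of the 14892 genes tested, 271, 430 and 498 had an unadjusted p under 0.05 in edgeR on these days. Each is a share below the 0.05 that chance alone would give. DESeq2 and limma also called 0 of the 7 on each day. Esrrb was at 33.0 and 23.3 CPM with JNKi on day 1, against 11.8 and 11.3 CPM in iCD1 alone, and was the 1 factor whose JNKi libraries all lay above, as did those of 16.2% of genes. Its log2 difference was 1.27 ± 0.48 on day 1, 1.12 ± 0.44 on day 2 and 1.63 ± 0.56 on day 3, each with an edgeR adjusted p of 1.00. Other factors lay wholly below on day 1. Nr5a2 was at 2.973 and 3.594 CPM with JNKi, against 3.615 and 7.068 CPM in iCD1 alone (-0.703 ± 0.545). Nr0b1 had 3 counts over the day 1 libraries in iCD1 alone and 0 with JNKi.

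On day 2 the groups did not overlap for 3 factors, Esrrb, Tfcp2l1 and Nr5a2, and for 9.19% of genes, and on day 3 for 4, Esrrb, Tfcp2l1, Nr0b1 and Zfp42, and for 13.7% of genes. Zfp42 was at 8.31 and 12.8 CPM with JNKi on day 3, against 2.58 and 1.45 CPM in iCD1 alone (2.28 ± 0.57, edgeR adjusted p = 1.00), the furthest of the 7 from 0 in units of its SE. Esrrb was at 13.4 and 34.7 CPM with JNKi on day 3, against 9.04 and 5.38 CPM in iCD1 alone. Tbx3 was at 0.354 and 4.61 CPM with JNKi on day 3, against 3.16 and 0.207 CPM in iCD1 alone, and the 2 groups covered the same range. JNKi day 2 replicate 1 and JNKi day 3 replicate 3 were each the highest library of their group for all 7 factors. Without day 3 JNKi replicate 3 the difference of Tbx3 was -2.38 and that of Prdm14 -0.89, where all libraries gave 0.15 ± 0.92 and 1.14 ± 1.04. In the test of the JNKi effect on day 3 against that on day 1 no factor passed, with 0% of genes called higher. Of the 14892 genes tested, 339 had an unadjusted p under 0.05 in edgeR, again a share below 0.05. DESeq2 and limma called 0 of the 7, but edgeR with no filter beyond 1 count called 1. For Zfp42 that difference of effects was 2.05 ± 0.84 (edgeR unadjusted p = 0.0275, adjusted p = 1.00). Jun itself was at 448 and 196 CPM with JNKi on day 3, against 265 and 369 CPM in iCD1 alone.

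In the second system, 3 of the 7 naïve factors were higher in JunKO than in WT cells after 3 days of iCD1. All 7 factors had both JunKO libraries above both WT libraries, as had 20.6% of genes, and Esrrb, Nr5a2 and Zfp42 passed the test, where 1.35% of the 13152 genes tested were called higher. Zfp42 was at 27.3 and 51.1 CPM in JunKO cells, against 2.10 and 6.26 CPM in WT cells, 3.22 ± 0.51 higher on the log2 scale (edgeR adjusted p = 0.0202). Esrrb was at 55.8 and 93.6 CPM in JunKO cells, against 4.20 and 18.1 CPM in WT cells (2.73 ± 0.52, edgeR adjusted p = 0.0309). Nr5a2 was at 9.42 and 19.1 CPM in JunKO cells, against 0.350 and 1.98 CPM in WT cells (3.57 ± 0.77, edgeR adjusted p = 0.0494). For these 3 genes the lower JunKO library stood 3 or more times above the higher WT library.

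The other 4 factors had the same order of libraries without passing. Tfcp2l1 was at 37.7 and 72.2 CPM in JunKO cells, against 9.09 and 21.1 CPM in WT cells (1.87 ± 0.48, edgeR adjusted p = 0.0902). Nr0b1 was at 5.84 and 21.7 CPM in JunKO cells, against 0.350 and 3.63 CPM in WT cells (2.77 ± 0.88, edgeR adjusted p = 0.188). Tbx3 was at 9.09 and 36.0 CPM in JunKO cells, against 5.60 and 8.90 CPM in WT cells, so that its groups nearly met (1.65 ± 0.93, edgeR adjusted p = 0.523). Prdm14 was at 3.90 and 3.71 CPM in JunKO cells, against 0.699 and 0.330 CPM in WT cells, where it had 3 counts in all. Its ratio of pooled CPM was 7.46, with a 95% counting interval of 2.28 to 38.6 (edgeR adjusted p = 0.227). The JunKO and WT lines differed in more than c-Jun, Y-linked Eif2s3y being at 45.3 to 72.8 CPM in the 6 JunKO libraries and at 4.69 to 25.9 CPM in the 6 WT libraries, so line and genotype cannot be told apart. The calls depended on 2 libraries a group: leaving out JunKO replicate 2 or either WT library left 0 of the 7 called, and leaving out JunKO replicate 1 left 3. The fold changes stayed above 0 in each case, between 2.65 and 4.23 for Zfp42, 2.05 and 4.17 for Esrrb and 2.84 and 5.23 for Nr5a2 on the log2 scale, each lowest without WT replicate 1 and highest without WT replicate 2, while the whole table had 206 calls with all libraries and 5 to 174 without one. The call of Nr5a2 was also lost with RLE size factors, with limma on log2(TPM + 1) and with only the 2 groups in the fit.

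**Figure D3:**
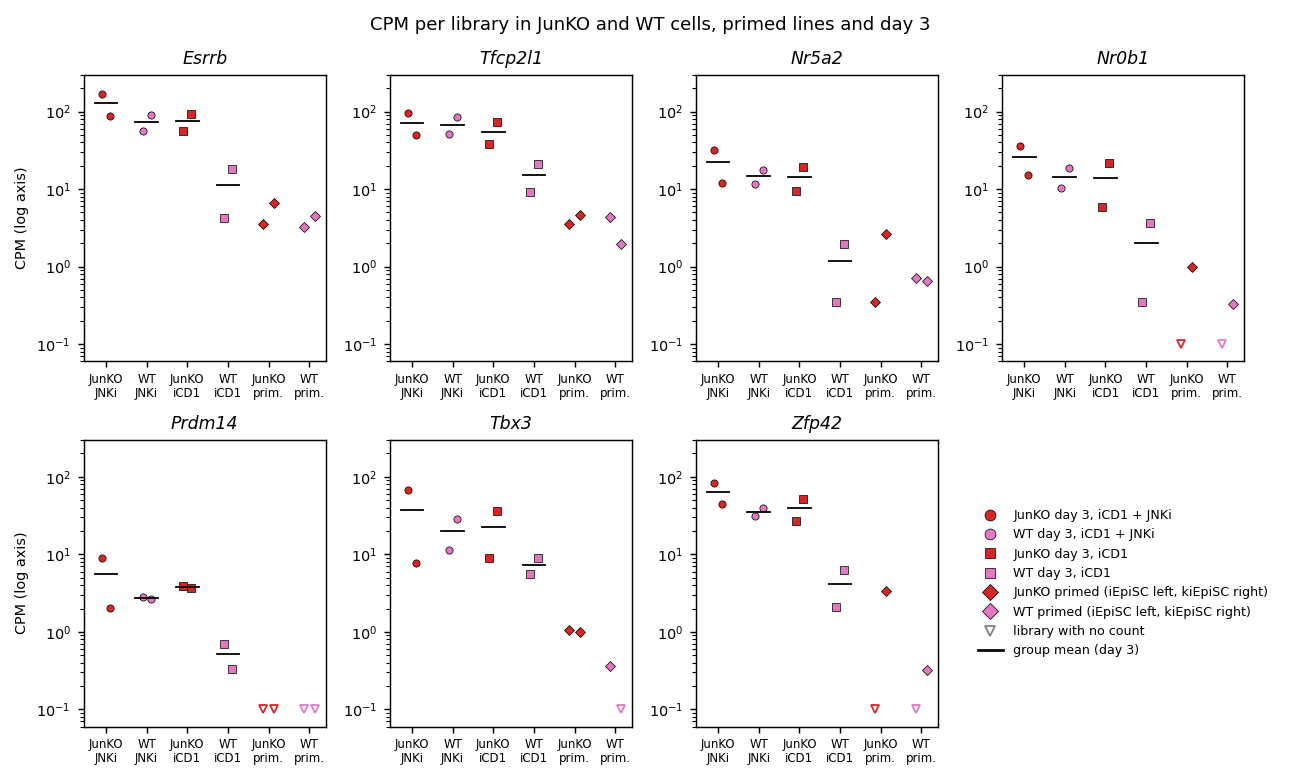
CPM of each factor (log axis) per library in JunKO and WT cells, on day 3 with JNKi, on day 3 in iCD1 and in primed cells (prim.), with open triangles for libraries with no count. The 2 WT libraries in iCD1 alone are the lowest of the 8 day 3 libraries for every factor but Tbx3, for which JunKO JNKi replicate 2, at 7.65 CPM, lies between them.

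Zfp42 was also higher with JNKi in WT cells, in a comparison that shares the 2 WT libraries in iCD1 alone with the one above. All 7 factors had both JNKi libraries above both libraries without it, as had 24.9% of genes, and 1 passed, where 0.319% of genes were called higher. Zfp42 was at 31.4 and 39.3 CPM with JNKi, against 2.10 and 6.26 CPM in iCD1 alone (3.06 ± 0.51, edgeR adjusted p = 0.0375). Esrrb was at 56.7 and 90.2 CPM with JNKi, against 4.20 and 18.1 CPM in iCD1 alone (2.70 ± 0.52, edgeR adjusted p = 0.0561). Nr5a2 was at 11.6 and 17.6 CPM with JNKi, against 0.350 and 1.98 CPM in iCD1 alone (3.59 ± 0.77, edgeR adjusted p = 0.0779). These 2 factors lay just past the threshold, and the count of calls followed the method. DESeq2 called 4 of 7 and limma 0. With the replicate number as a block edgeR called 4. Leaving out any 1 of the 4 libraries left 0 called. Tfcp2l1 differed by 2.15 ± 0.47, Nr0b1 by 2.82 ± 0.88, Prdm14 by 2.32 ± 1.00 and Tbx3 by 1.48 ± 0.93 (edgeR adjusted p = 0.0837, 0.200, 0.350 and 0.519).

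JunKO with JNKi in both arms, and JNKi with c-Jun deleted in both arms, gave smaller differences, none of which passed. JunKO against WT with JNKi gave 0 of 7 calls, where 0.646% of genes were called higher and 2144 genes had an unadjusted p under 0.05, and the log2 differences lay between 0.10 ± 0.41 for Tfcp2l1 and 1.04 ± 0.71 for Prdm14. Zfp42, at 82.3 and 44.4 CPM in JunKO cells against 31.4 and 39.3 CPM in WT cells with JNKi, was the 1 factor whose groups did not overlap, as did those of 23.3% of genes (0.85 ± 0.39, edgeR adjusted p = 0.317). JNKi in JunKO cells also gave 0 of 7, where 0.0304% of genes were called higher and 1649 had an unadjusted p under 0.05, and 0 of the 7 were without overlap, against 18% of genes. Esrrb was at 169.2 and 87.1 CPM in JunKO cells with JNKi, against 55.8 and 93.6 CPM in JunKO cells in iCD1 alone (0.78 ± 0.42, edgeR adjusted p = 0.486). Tbx3 was at 68.0 and 7.65 CPM in JunKO cells with JNKi, against 9.09 and 36.0 CPM in JunKO cells in iCD1 alone, so that the JNKi libraries lay on both sides (0.73 ± 0.81, edgeR adjusted p = 0.763). DESeq2 and limma called 0 of the 7 in both comparisons. Without JunKO JNKi replicate 1, which was the higher of its group for all 7 factors, the differences of Tfcp2l1, Nr5a2, Prdm14 and Tbx3 were below 0 in both, none of them called.

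**Figure D4:**
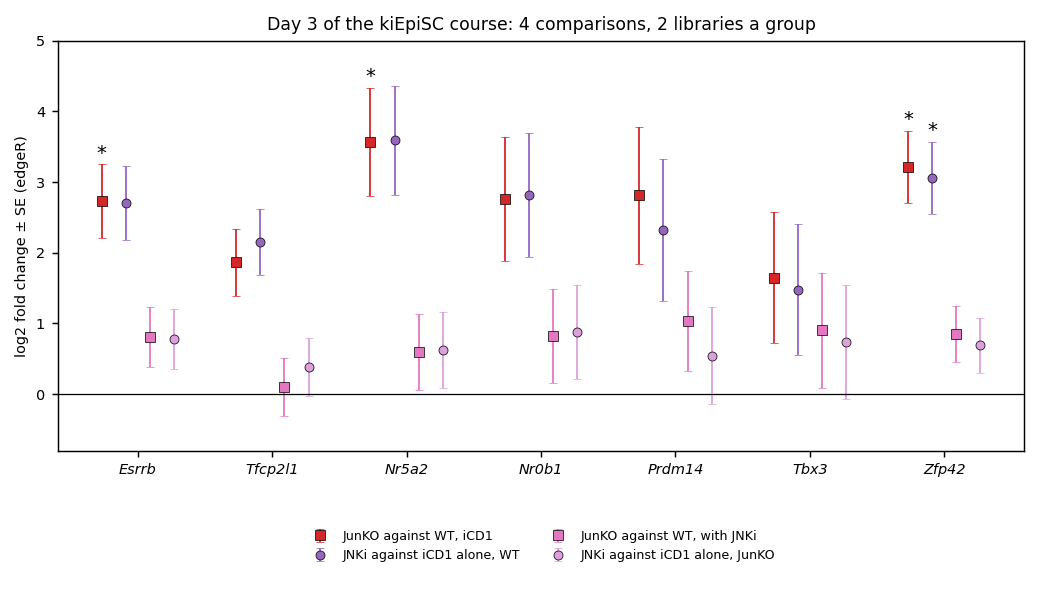
Fitted log2 fold change of each factor on day 3 of the kiEpiSC course (edgeR, bars are SE, stars mark an adjusted p under 0.05), for JunKO against WT in iCD1, JNKi against iCD1 alone in WT, JunKO against WT with JNKi and JNKi against iCD1 alone in JunKO. The first 2 comparisons lie between 1.48 and 3.59 over the 7 factors and the last 2 between 0.10 and 1.04.

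The difference between the JNKi effects in JunKO and in WT cells was itself tested. It was below 0 for all 7 factors, between -0.75 ± 1.23 for Tbx3 and -2.96 ± 0.96 for Nr5a2, but no factor passed in edgeR, DESeq2 or limma, 0% of genes were called higher and 750 had an unadjusted p under 0.05. For Zfp42 the value was -2.37 ± 0.65 (edgeR adjusted p = 0.855). As a percentage of the kiPSC level, the median factor was at 26.2% and 12.4% in JunKO cells with JNKi, at 7.82% and 16.01% in JunKO cells in iCD1, at 8.79% and 13.2% in WT cells with JNKi and at 0.658% and 2.15% in WT cells in iCD1. Nr0b1 was the furthest factor in 6 of these 8 libraries, up to 48.3% in JunKO JNKi replicate 1, and Prdm14 the least in 5.

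In primed cells, before the medium change, c-Jun loss went with no call among the 7. There 0.205% of genes were called higher, 1054 genes had an unadjusted p under 0.05, and DESeq2 and limma likewise called 0 of 7. Each line and genotype had 1 library, so JunKO and WT were compared over the 2 lines with the line as a term. Esrrb was at 3.54 CPM in JunKO iEpiSC and 6.63 in JunKO kiEpiSC, against 3.25 CPM in WT iEpiSC and 4.54 in WT kiEpiSC (0.38 ± 0.86, edgeR adjusted p = 0.992). Zfp42 had 10 counts in JunKO kiEpiSC and 1 in WT kiEpiSC, and none in iEpiSC of either genotype. The ratio of its pooled CPM was 10.02, with a 95% counting interval of 1.43 to 435 (edgeR adjusted p = 0.702). Prdm14 had no count in any of the 4 primed libraries. JunKO kiEpiSC was the primed library with the highest Esrrb, Nr5a2, Nr0b1, Tfcp2l1 and Zfp42.

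From primed cells to day 3 of iCD1, 5 of the 7 factors were called higher in JunKO cells, where 13.2% of genes were, and 1 of the 7 in WT cells, where 14.4% were. In JunKO cells these were Esrrb (3.56 ± 0.70, edgeR adjusted p = 0.00442), Tfcp2l1 (3.87 ± 0.70, 0.00290), Zfp42 (3.56 ± 0.70, 0.00571), Nr5a2 (2.68 ± 0.86, 0.0435) and Prdm14, at least 7.39-fold over a floor of 3 counts in the primed group (0.0435). In WT cells it was Tfcp2l1, at 9.09 and 21.1 CPM on day 3, against 4.33 CPM in iEpiSC and 1.95 CPM in kiEpiSC (2.42 ± 0.80, edgeR adjusted p = 0.0447). Tbx3 had 43 counts on day 3 in WT cells and 1 in WT primed cells, a ratio of 42.7 with a 95% counting interval of 7.27 to 1726 (edgeR adjusted p = 0.113). Leaving out 1 library moved the JunKO count to between 0, without JunKO kiEpiSC, and 6, and the WT count to 0 without either primed library or day 3 replicate 2. Without JunKO kiEpiSC the fitted log2 differences were not smaller, at 3.93 for Esrrb, 5.10 for Tfcp2l1 and 5.35 for Nr5a2, and Zfp42 and Prdm14 had no count in the 1 primed library left. Whether the JunKO effect differed between day 3 and primed cells was tested directly, and 0 of 7 passed in edgeR, DESeq2 and limma, with 0.0152% of genes called higher and 730 at an unadjusted p under 0.05. For Esrrb the value was 2.35 ± 1.04 (edgeR adjusted p = 0.897).

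Markers of other cells moved with these groups on day 3. The summed level of the 4 markers of both pluripotent states was 889 to 929.9 CPM in JunKO cells with JNKi, 479 to 642 in WT cells with JNKi, 437 to 639 in JunKO cells in iCD1 and 189 to 266 in WT cells in iCD1. The 14 primed epiblast markers summed to 1221 to 1261 CPM in JunKO cells with JNKi, 693.5 to 733 in WT cells with JNKi, 532 to 791 in JunKO cells in iCD1 and 365.5 to 391 in WT cells in iCD1, where Fgf5 was at 0. The sum of this list too was highest in JunKO cells with JNKi and lowest in WT cells in iCD1. It includes T, which is also on the mesoderm list, and the share of T was not separated. The 7 mesoderm markers summed to 312 to 842 CPM in JunKO cells with JNKi, 277 to 342 in WT cells with JNKi, 106 to 493 in JunKO cells in iCD1 and 103 to 139.5 in WT cells in iCD1, where Mixl1, Mesp1 and Foxf1 were at 0. The 7 primitive endoderm markers summed to 31.9 to 109 CPM in JunKO cells with JNKi, 26.5 to 35.9 in WT cells with JNKi, 30.0 to 45.1 in JunKO cells in iCD1 and 25.4 to 28.7 in WT cells in iCD1, where Sox7 was at 0. All 8 trophoblast markers were seen in all 4 groups, at 316 to 387, 228 to 231, 190.3 to 284 and 149 to 159.8 CPM in the same order of groups. The 7 fibroblast markers, all seen, summed to 1338 to 1695, 1449 to 1636, 1689 to 1853 and 1369 to 1397 CPM in that order. The 5 germ cell markers summed to 17.1 to 23.6 CPM in JunKO cells with JNKi, 6.69 to 9.81 in WT cells with JNKi, 7.78 to 10.8 in JunKO cells in iCD1 and 3.85 to 3.96 in WT cells in iCD1, where Dazl and Sycp3 were at 0. The 5 markers of 2-cell-like cells summed to 6.41 to 24.2 CPM in JunKO cells with JNKi, 2.71 to 8.08 in WT cells with JNKi, 0.455 to 17.2 in JunKO cells in iCD1 and 0.350 to 0.653 in WT cells in iCD1, where 4 of the 5 were at 0. The part of these cells in the differences of the 7 factors was not tested.

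Some of the other naïve genes passed in the same comparisons, and none of the signalling inputs did. Of 20 other naïve genes 9 were called higher and 0 lower in JunKO against WT cells in iCD1, with a median log2 fold change of 2.29 against 0 over all genes, led by Fgf4, the growth factor that primes ESC (3.65), Utf1 (2.93) and Jam2 (2.80). This list is not of naïve genes only. Utf1 was called lower in ESC than in EpiSC, and Pou5f1, Nanog, Sox2 and Sall4, the markers of both pluripotent states, are on it. For JNKi in WT cells 4 were called higher, Utf1 (3.21), Nanog (2.60), Klf2 (1.67) and Sox2 (0.97), with a median of 2.20. Of the 8 paralogues and the 12 inputs and cofactors tested, 0 were called in either comparison, with medians between -0.18 and 0.12. Klf4 differed by -0.25 ± 0.27 between JunKO and WT cells in iCD1 (edgeR adjusted p = 0.789). Of the 6 genes known to be repressed by Prdm14, Dnmt3l, a cofactor of the de novo DNA methyltransferases, was called higher in JunKO cells (7.35 ± 1.29, edgeR adjusted p = 0.0329) and with JNKi in WT cells (8.27 ± 1.16, 0.0348), and the other 5 were not called.

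Over all 18 groups the order of the levels was shared in its upper part. ESC and kiPSC were the 2 highest groups for each of the 7 factors, with overlapping ranges, and JunKO cells on day 3 with JNKi came next for each, with a range that overlapped that of the group below for all 7. That place rests on JunKO JNKi replicate 1, replicate 2 being far lower for some, as for Tbx3 at 68.0 and 7.65 CPM and Prdm14 at 9.02 and 2.06 CPM. The ranges of neighbouring groups overlapped in 10 of 17 neighbour pairs for Esrrb, 12 for Tfcp2l1, Nr0b1 and Tbx3, and 13 for Nr5a2, Prdm14 and Zfp42, so much of the order does not exceed the spread. Across the 18 group means of log2(TPM + 1), Pearson's r between pairs of factors lay between 0.914 (Nr5a2 and Tbx3) and 0.980 (Nr0b1 and Tbx3), a description in which all points share libraries and the contrast of ESC and kiPSC with the rest carries much of the value. Among 13130 other genes, those most like each factor were Triml2 (0.979), Saa3 (0.967) and Crxos (0.967) for Esrrb, Spic (0.981), Lrrc31 (0.980) and Triml1 (0.980) for Tfcp2l1, and Cobl (0.965), Aoah (0.963) and Triml2 (0.962) for Nr5a2. For Nr0b1 they were Morc1 (0.987), 1700097N02Rik (0.980) and Triml2 (0.973), for Prdm14 Khdc3 (0.991), Syce1 (0.991) and Fam81a (0.991), for Tbx3 Zfp936 (0.977), Pecam1 (0.977) and Triml2 (0.974), and for Zfp42 Morc1 (0.979), Triml2 (0.979) and Hsd17b14 (0.974). Triml2 was among the 3 nearest genes of 5 of the 7 factors.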

How the data were processed

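RNA of the 38 libraries was sequenced with a TruSeq kit on a NextSeq 500, per the labels, and gave 1 table of 29267 genes each. The authors made the tables with RSEM on Bowtie2 alignments to mm10 after bcl2fastq, per the labels, with no version given in the sources used here. The deposited tables hold expected counts, which are not normalised and were rounded to whole numbers before testing, and the deposited TPM, scaled by the authors to transcript length and to a common library total. RSEM shares reads between transcripts, and Tfcp2l1 had a fractional count in 4 libraries and the other factors in none. TPM of a gene with several transcripts also follows the transcript mix estimated in that library.

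Counts were tested in R 4.3.3 with the quasi-likelihood test of edgeR 4.0.16 (TMM, filterByExpr with a minimum count of 10, Benjamini-Hochberg adjustment over all genes tested, threshold 0.05) in 3 fits: the stable lines (13 libraries), the kEpiSC course (17) and the JunKO and WT libraries (12, with the line as a term). All 7 factors passed the filter in each fit. The SE is the log2 fold change divided by the square root of F. Alternatives were DESeq2 1.42.0, limma 3.58.1 on log2(TPM + 1), RLE size factors, no filter beyond 1 count, at least 1 CPM, only the groups compared, all 38 libraries in one fit, the replicate number as a block, ESC replicate 5 as the only ESC library (ESC replicates 1 to 4 differ in effective length), and each library left out. Bounds against groups with no count use a floor of 3 counts over the group, and 95% intervals of count ratios are exact and cover counting error only. The script was tested on simulated data. Summaries were made in Python 3.11.15 (scipy 1.17.1 for the intervals) and figures in matplotlib 3.10.9.

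The 7 factors and the gene lists were chosen with earlier results of these data known. Named beside the factors are Jun and Klf4 as label checks, up to 3 called genes per direction of each list with the largest fold change, and the 3 genes most like each factor. Eif2s3y, and Klf4 in the JunKO comparison, were added after their values were seen, and so were all called genes of a list named beyond 3. The labels give no JNKi dose and no day for the kiEpiSC libraries in iCD1, and day 3 JNKi replicate 1 of the kEpiSC course was not analysed here.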

Additional observations from a re-analysis of the deposited data

Results flagged for a closer look

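Zfp42 in EpiSC was seen in replicate 1, at 7.052 CPM from 15 counts, and had no count in replicates 2, 3 and 4, so that 1 library stood apart from the other 3. Of 12 gene and group pairs tested in this way 1 stood apart. The rule flags any gene seen in only 1 of 4 libraries, whatever its level, so its usual rate of about 1 in 20 does not apply here. The same library differed in Xist, at 8.87 CPM against 1697 to 2103 CPM in replicates 2 to 4, and in Eif2s3y, at 39.96 CPM against 0.688 to 0.734 CPM. Without it the fitted log2 difference of Zfp42 between ESC and EpiSC was 14.04, against 7.74 ± 0.64 with all libraries, and the 3 EpiSC libraries left had no count.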

How the results depend on the processing

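The 7 calls of ESC against EpiSC, kiPSC against kEpiSC and kiPSC against iCD1 day 3, and the 0 calls of kiPSC against ESC and of JunKO against WT in primed cells, held under every alternative that could be fitted, as a count of calls. No called value changed sign. With no filter beyond 1 count the number of the 7 called was 7 for JunKO against WT in iCD1, 6 for JNKi in WT, 2 for JunKO against WT with JNKi, 1 for JNKi in JunKO, 4 (all below 0) for the difference of the JNKi effects between genotypes, 1 for the JunKO effect on day 3 minus that in primed cells, 4 for WT day 3 against primed cells, 4 for iCD1 day 1 and 4 for JNKi day 1 against kEpiSC, 1, 4 and 3 for JNKi against iCD1 alone on days 1, 2 and 3, and 1 for its day 3 minus day 1. DESeq2 called 4 for JNKi in WT, 2 for WT and 7 for JunKO day 3 against primed cells, 2 for iCD1 day 1 and 3 for day 3. limma called 0 for JNKi in WT, for WT day 3 against primed cells, for iCD1 day 3 and for kEpiSC against EpiSC, and 4 for JNKi day 3 against kEpiSC. Only the groups compared gave 5 for JNKi in WT, 2 for WT day 3 against primed cells, 2 for iCD1 day 1, and 0 for iCD1 day 3 and for kEpiSC against EpiSC. All 38 libraries gave 4 for JNKi in WT and 0 for kEpiSC against EpiSC, and at least 1 CPM gave 2 for JNKi in WT. The cause of these moves was not tested. Leaving out 1 library gave 0 to 3 for JunKO against WT in iCD1, 0 to 0 for JNKi in WT, 0 to 6 and 0 to 1 for JunKO and WT day 3 against primed cells, 3 to 4 for iCD1 day 2, 0 to 1 for day 3, 1 to 2 and 3 to 7 for JNKi days 1 and 3 against kEpiSC, and 0 to 1 for kEpiSC against EpiSC. Values that changed sign when 1 library was left out, none of them called with all libraries, were for JNKi on day 3 Tbx3 (-2.38 to 3.25, lowest without JNKi replicate 3, and -0.58 without iCD1 replicate 2) and Prdm14 (-0.89 to 2.20, lowest without JNKi replicate 3). For JunKO against WT with JNKi they were Tfcp2l1 (-0.44 to 0.51, with -0.21 without WT JNKi replicate 1, and -0.01 with limma), Nr5a2 (-0.26 to 1.13), Prdm14 (-0.37 to 1.73) and Tbx3 (-1.39 to 1.75), and for JNKi in JunKO Tfcp2l1 (-0.15 to 0.94, with -0.01 without JunKO iCD1 replicate 1), Nr5a2 (-0.24 to 1.24), Prdm14 (-0.86 to 1.23) and Tbx3 (-1.55 to 2.06), each lowest without JunKO JNKi replicate 1. The difference of the JNKi effects for Tbx3 was -3.04 to 0.58, and above 0 without replicate 2 of JunKO JNKi, JunKO iCD1 or WT JNKi (0.08, 0.58 and 0.10). The labels do not say whether the replicate numbers pair the samples, and the data do not settle it. Deviations of same-numbered libraries correlated over 0.1 in 1 of 14, 10 of 50 and 6 of 12 pairs of the 3 fits. In groups of 2 libraries the deviations mirror each other, so between 2 such groups 1 value is counted under both numbers. The 6 pairs of the last fit, at 0.172 to 0.299, are those among JunKO in iCD1, WT in iCD1 and WT with JNKi, a hint from the data and not from the labels. Replicate 2 was the highest library for 6 of the 7 factors in each of these 3 groups. With the replicate number as a block 4 were called for JNKi in WT, and 0 for WT day 3 against primed cells and for kEpiSC against EpiSC, 3 for iCD1 day 3 and 3 for JNKi day 1 against kEpiSC. Several calls rest on groups under 10 counts, such as Prdm14 with 4 counts on day 3 of iCD1 and Nr5a2 with 7 in WT cells in iCD1, and depth limits these.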
